A study of Homo sapiens with 12 samples.

Results

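Heat-shock proteins and their J-domain cochaperones were described in 3 established human prostate cell lines. The members are the protein-coding genes whose symbols are HSPA, HSPB, DNAJA, DNAJB or DNAJC with a number, the genes whose symbols begin with HSP90, and HSPD1, HSPE1 and HSPH1. These are 73 of the 58302 genes in the deposited table, or 73 of its 19817 protein-coding genes, and carry 72 symbols because HSPA14 stands on 2 rows. The readthrough genes HSPB2-C11orf52 and DNAJC25-GNG10 were left out. RNA sequencing had been done on BPH-1, a benign prostate epithelial line, and on DU145 and PC3, prostate cancer (PCa) lines that grow without androgen. There were 4 libraries of each line. All lines were wild type by their labels, received no treatment that the labels name, and grew in Dulbecco's modified Eagle's medium with fetal bovine serum, penicillin and streptomycin. Each line is a single established line, so a difference between lines is a difference between these lines and not between benign and malignant prostate, and nothing says that the 4 libraries of a line came from separate cultures. The p-values therefore measure the spread between libraries, which may be technical.

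HSP70 proteins (the HSPA family) hold unfolded stretches of other proteins in a cycle driven by ATP. J-domain proteins (DNAJA, DNAJB and DNAJC) bring them their clients and start the hydrolysis, and exchange factors such as the HSP110 proteins HSPA4, HSPA4L and HSPH1 release the nucleotide so that the cycle can begin again. HSP90 proteins take over many clients from HSP70 for the last steps of folding, the chaperonin of HSPD1 and HSPE1 folds proteins inside mitochondria, and small heat-shock proteins (HSPB) keep unfolding proteins from clumping without using ATP. Some members are induced by heat-shock factors, others by the unfolded protein response of the endoplasmic reticulum, and many are made all the time.

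Levels are given as FPKM, reads scaled to the length of the gene and the depth of the library. The unit was recognised from the values, since no source used here names it. Replicates are listed in the order 1 to 4. Differences are log2 fold changes of log2(FPKM + 1) with their standard errors (SE), which understate the change of genes with low values. A member was called higher or lower at an adjusted p under 0.05 by limma with the Benjamini-Hochberg adjustment over all genes tested. The depth recovered from the values was between 12950664 and 16309563 reads per library. A gene with 3 reads or fewer in a library is treated as not detected there, and this limit covers counting error only.

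The libraries of a line were not alike. Over 2457 genes with a GC content under 42%, the median deviation from the mean of all 12 libraries on the log2 scale was between 0.55 and 0.63 in the BPH-1 libraries. It was -0.83 and -1.06 in DU145 replicates 1 and 3 against -0.17 and -0.29 in replicates 2 and 4, and -0.62 and -0.91 in PC3 replicates 3 and 4 against -0.27 and -0.33 in replicates 1 and 2. Many members have a low GC content. Where removing this trend from each library ended a call described below, the value without the trend is given beside it. The lines carried keratins of epithelium in every library (KRT18 between 26.8 and 99.2 FPKM). Of the other epithelial markers, EPCAM and CDH1 were far lower in the PCa lines, but KRT8 and KRT19 were not. The mean of KRT8 was 31.1 FPKM in BPH-1, 19.7 in DU145 and 23.0 in PC3, and that of KRT19 was 32.0, 22.7 and 231.6. The mean of EPCAM was 60.8 FPKM in BPH-1, 0.376 in DU145 and 9.10 in PC3, and that of CDH1 was 28.4, 0.180 and 0.786. The basal keratin KRT5 was at 120.2 to 175 FPKM in BPH-1. It was at 0.34 and 0.50 FPKM in DU145 replicates 1 and 2 and at 0.02 and 0 in replicates 3 and 4, and the leukocyte gene PTPRC was at 1.35 and 1.25 FPKM in the first pair, at 0 in the second and in PC3, and at 1.15 to 1.54 in BPH-1. The stromal genes DCN and COL1A2 were at 0.373 and 0.133 FPKM in DU145 replicate 3 and 0.214 and 0.135 in replicate 4, and at 0.0119 or less in all other libraries. The stromal genes COL1A1 and PDGFRB did not follow this. COL1A1 was at 0.354 to 0.524 FPKM in DU145, 1.71 to 3.08 in BPH-1 and 2.99 to 3.84 in PC3. PDGFRB was at 0.273 to 0.628 FPKM in DU145, 0.261 to 0.393 in BPH-1 and 0.0153 to 0.0992 in PC3. What sets DU145 replicates 1 and 2 apart from 3 and 4 in KRT5, PTPRC, DCN and COL1A2 was not tested. The prostate-specific KLK3 was listed at 0 in all 12 libraries, and the T cell marker CD3E as well.

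Few members made up most of the chaperone RNA. The 5 most abundant members held 65.7% of the summed mean FPKM of all members in BPH-1 (HSP90AB1, HSPA5, HSP90B1, HSP90AA1 and HSPA1A), 78.8% in DU145 (HSP90AB1, HSPA5, HSPA9, HSPB1 and DNAJC5) and 67.5% in PC3 (HSP90AB1, HSPA1A, HSPA5, HSPA8 and HSPB1). All members together held between 1.202% and 1.51% of the summed FPKM in the BPH-1 libraries, between 0.67% and 0.82% in DU145 and between 0.78% and 1.05% in PC3. The ranges of BPH-1 did not overlap those of the PCa lines. A mean over 100 FPKM was reached by 8 members in BPH-1, 3 in DU145 and 5 in PC3.

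Of the 73 members, 61 passed the filter on low reads in all 3 comparisons and 11 in none. In PC3 against BPH-1, 14 of 61 members tested were higher and 28 lower, where 67.6% of all 16408 genes tested were called (27.1% higher, 40.4% lower). In DU145 against BPH-1, 14 of 62 were higher and 25 lower, where 62.7% of 17016 genes were called (30.3% higher, 32.4% lower). In PC3 against DU145, 18 of 62 were higher and 15 lower, where 48.3% of 16420 genes were called (20% higher, 28.3% lower). Over both directions, the shares of members called lay near those of all genes. The median difference of the members tested was -0.37, -0.33 and 0.06 in these comparisons, against -0.13, -0.03 and -0.05 over all genes. With the further demands of a log2 difference of at least 1 and no overlap of the lines, 4 members were higher and 20 lower in PC3 against BPH-1 (9.28% and 17.4% of all genes tested), 4 and 19 in DU145 against BPH-1 (11.3% and 17%) and 10 and 6 in PC3 against DU145 (7.84% and 10.9%). The lines did not overlap in 42, 40 and 29 of the members tested, against 64.4%, 59.5% and 46.5% of all genes. The balance of higher and lower calls depended on scaling. With the same sum of FPKM in each library it became 9 higher and 31 lower in PC3 against BPH-1 and 10 and 31 in DU145 against BPH-1, and with the GC trend removed 20 and 16, and 21 and 21. Both PCa lines are compared with the same 4 BPH-1 libraries.

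**Figure D1:**
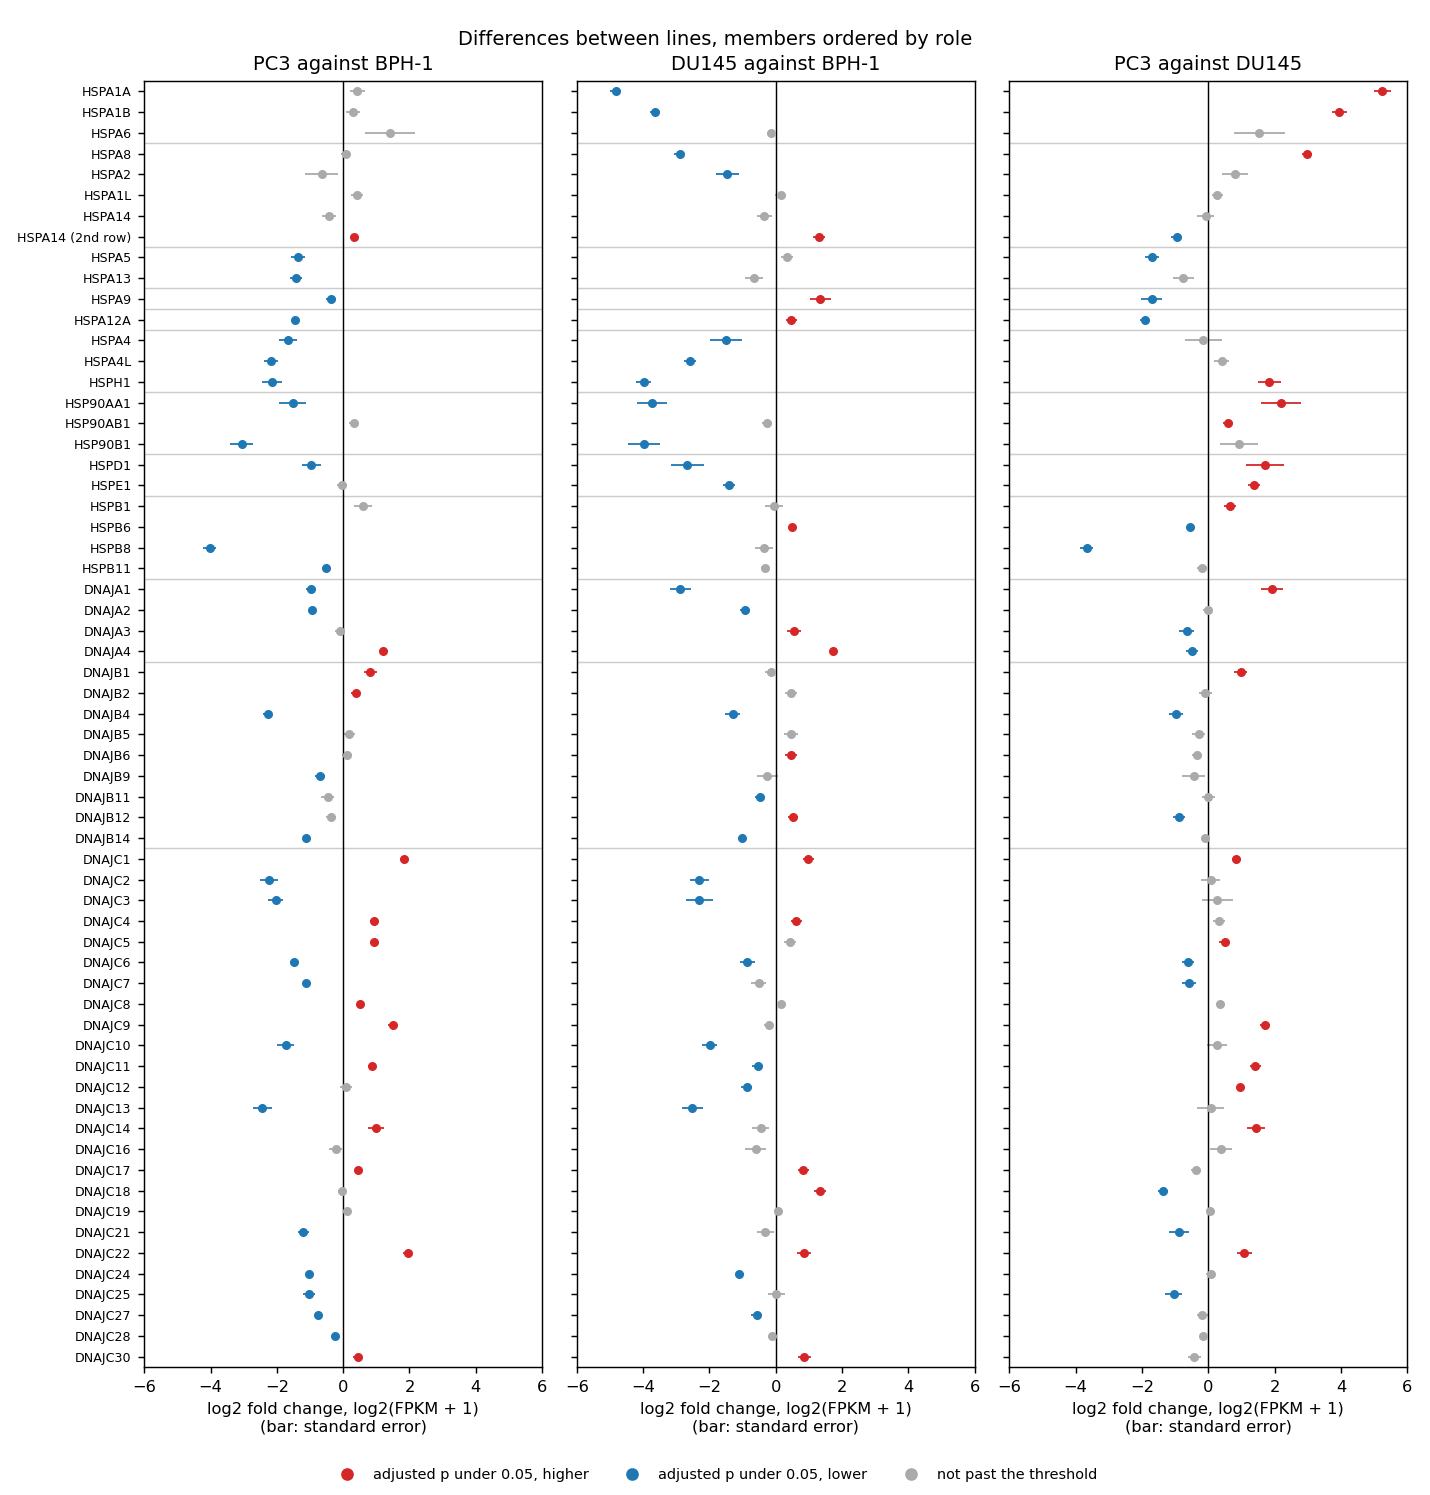
Log2 fold change of log2(FPKM + 1) with its standard error for each member tested, ordered from the HSP70 proteins at the top through the HSP110, HSP90, chaperonin and small heat-shock proteins to the J-domain classes A, B and C. Red points were higher and blue points lower at an adjusted p under 0.05. HSPA1A, HSPA1B and HSPA8 lie far to the left in DU145 against BPH-1 and far to the right in PC3 against DU145, while they sit near 0 in PC3 against BPH-1.

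Among the cytosolic HSP70 genes, HSPA1A, HSPA1B and HSPA8 were far lower in DU145 than in both other lines. HSPA1A, the major stress-induced HSP70, was at 252, 213, 231 and 213 FPKM in the BPH-1 libraries, at 7.56, 6.28, 9.13 and 5.65 in DU145 and at 265, 237, 274 and 509 in PC3. DU145 stood below every library of both other lines, and PC3 replicate 4 stood above the rest. HSPA1A was 31.8-fold lower in DU145 than in BPH-1 by the means (log2 fold change -4.82, SE 0.17, limma adjusted p = 5.43e-08) and 44.9-fold higher in PC3 than in DU145 (log2 fold change 5.25, SE 0.25, limma adjusted p = 6.73e-07). PC3 and BPH-1 overlapped (log2 fold change 0.43, SE 0.22, limma adjusted p = 0.108).

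HSPA1B, which encodes the same protein from a neighbouring gene, was at 61.8, 54.0, 54.4 and 50.3 FPKM in BPH-1, 3.43, 2.92, 4.27 and 3.28 in DU145 and 56.2, 52.9, 66.5 and 108 in PC3. Its order of lines was that of HSPA1A, with a log2 fold change of -3.65 in DU145 against BPH-1 (SE 0.15, limma adjusted p = 1.35e-07) and 3.96 in PC3 against DU145 (SE 0.23, limma adjusted p = 1.79e-06). The coding sequences of the pair are nearly identical, so how reads were split between them is uncertain. The ratio of HSPA1A to HSPA1B was 3.94 to 4.25 in BPH-1, 1.72 to 2.21 in DU145 and 4.12 to 4.72 in PC3.

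HSPA8, the HSP70 that cells make without stress, was at 167, 124, 148 and 133 FPKM in BPH-1, 18.1, 20.9, 15.8 and 18.1 in DU145 and 160.3, 139.9, 127 and 176 in PC3. DU145 again lay below all 8 other libraries, 7.85-fold below BPH-1 (log2 fold change -2.90, SE 0.15, limma adjusted p = 4.82e-07) and 8.27-fold below PC3 (PC3 against DU145, log2 fold change 2.98, SE 0.15, limma adjusted p = 7.6e-07). PC3 and BPH-1 overlapped (log2 fold change 0.07, SE 0.13, limma adjusted p = 0.646). These calls of HSPA1A, HSPA1B and HSPA8 were kept with the GC trend removed, at -5.28, -4.07 and -2.61 in DU145 against BPH-1. Within a library, HSPA1A was 1.51 to 1.72 times HSPA8 in BPH-1 and 1.65 to 2.9 times in PC3, but 0.301 to 0.576 times in DU145.

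HSPA6, a strictly stress-induced HSP70, was low in 11 of 12 libraries. It was at 0.684, 0.580, 1.195 and 0.892 FPKM in BPH-1, 0.833, 0.802, 0.574 and 0.472 in DU145 and 1.34, 1.29, 2.098 and 31.9 in PC3, where replicate 4 stood far above the rest. All PC3 libraries lay above all others, but the gene passed no test with all libraries (log2 fold change 1.41, SE 0.75, limma adjusted p = 0.126 in PC3 against BPH-1 and log2 fold change 1.54, SE 0.77, limma adjusted p = 0.13 in PC3 against DU145). Without PC3 replicate 4 it was higher in PC3 than in BPH-1 by 0.48 (SE 0.15, limma adjusted p = 0.0216) and than in DU145 by 0.62 (SE 0.15, limma adjusted p = 0.0112). HSPA2, known best from the testis, was at 4.79, 6.21, 4.302 and 1.04 FPKM in BPH-1, 0.766, 0.540, 0.721 and 0.691 in DU145 and 2.35, 2.56, 0.201 and 4.24 in PC3. It was lower in DU145 than in BPH-1 (log2 fold change -1.46, SE 0.34, limma adjusted p = 0.00381), and BPH-1 replicate 4 and PC3 replicate 3 stood low within their lines. Without PC3 replicate 3 it was higher in PC3 than in DU145 by 1.24 (SE 0.19, limma adjusted p = 0.00123). HSPA1L, a testis form, passed no test as deposited and was higher in PC3 than in BPH-1 (0.48, limma adjusted p = 0.0416) and than in DU145 (0.39, limma adjusted p = 0.041) with the GC trend removed, with means of 0.832 ± 0.454 (SD, n = 4) FPKM in BPH-1, 0.996 ± 0.297 in DU145 and 1.42 ± 0.429 in PC3.

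**Figure D2:**
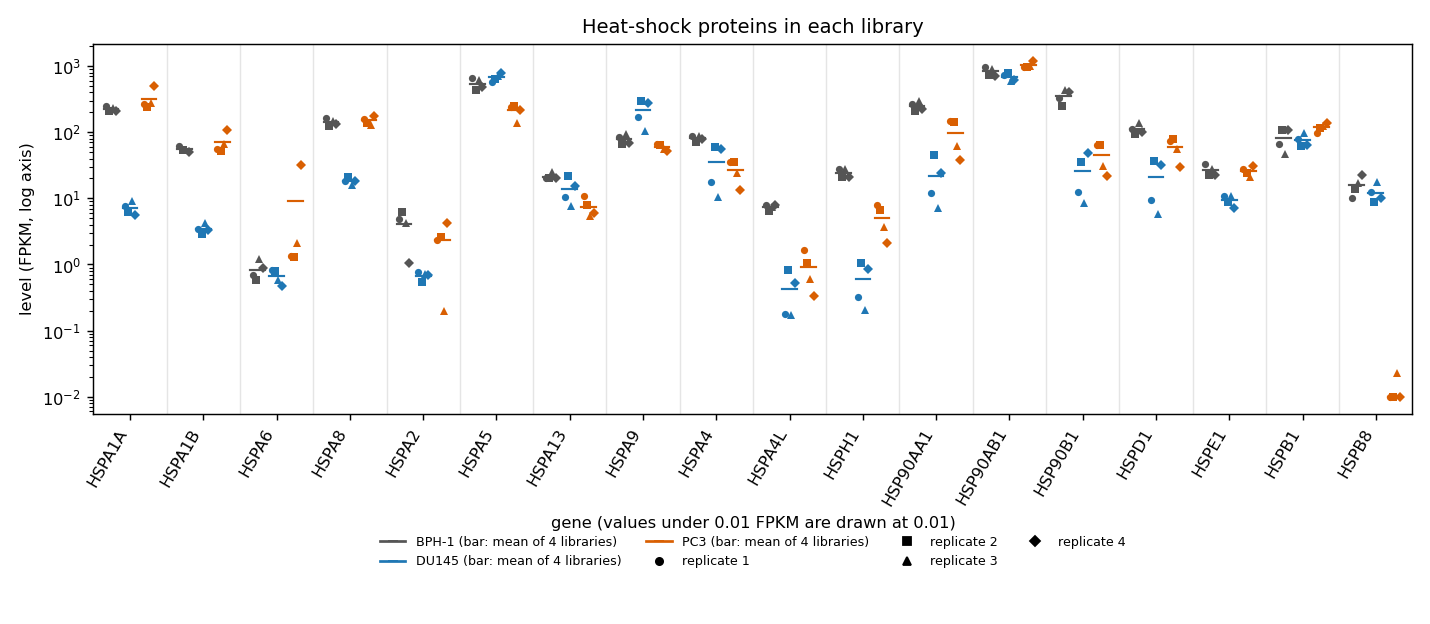
FPKM on a log axis of 18 heat-shock proteins in each of the 12 libraries, with a bar at the mean of each line and a marker shape for each replicate. HSPA1A and HSPA8 in DU145 lie at 5.65 to 9.13 and 15.8 to 20.9 FPKM, apart from both other lines, HSPB8 falls to 0 or 0.0229 in PC3, and HSP90AA1, HSP90B1 and HSPH1 spread widely among the replicates of DU145 and PC3.

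Heat-shock factors bind inverted repeats of GAA. The promoter windows of RefSeq on GRCh38.p14, from 250 bases before to 50 after the start of a gene, were searched on both strands for the core repeats GAANNTTC and TTCNNGAA, which can overlap each other by 3 bases. A window was given for 64 of the 72 symbols. Only the first listed window of a gene was searched, so cores at other starts of a gene are not counted. No core was counted for DNAJB1, HSP90AA1 or HSPH1. Of the 64 windows, 14 held a core (21.9%), against 13.7% of all 27305 windows, and 6 held at least 2 (9.38% against 1.7%). A match is a description of these letters and not a binding site. The stretches of the 3 stress-induced HSP70 genes that lie outside annotated exons are shown because these genes set PC3 replicate 4 or DU145 apart, with the cores in capitals. They are HSPA1A at chr6:31815293-31815463 and HSPA1B at chr6:31827488-31827658, each with 1 core, and HSPA6 at chr1:161524290-161524539 with 3, all on the plus strand:
HSPA1A: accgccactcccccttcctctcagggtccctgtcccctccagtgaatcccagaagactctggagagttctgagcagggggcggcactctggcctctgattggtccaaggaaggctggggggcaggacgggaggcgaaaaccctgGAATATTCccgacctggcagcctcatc
HSPA1B: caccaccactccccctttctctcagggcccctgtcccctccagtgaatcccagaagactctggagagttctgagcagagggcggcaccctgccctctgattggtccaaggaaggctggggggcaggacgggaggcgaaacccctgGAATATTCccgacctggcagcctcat
HSPA6: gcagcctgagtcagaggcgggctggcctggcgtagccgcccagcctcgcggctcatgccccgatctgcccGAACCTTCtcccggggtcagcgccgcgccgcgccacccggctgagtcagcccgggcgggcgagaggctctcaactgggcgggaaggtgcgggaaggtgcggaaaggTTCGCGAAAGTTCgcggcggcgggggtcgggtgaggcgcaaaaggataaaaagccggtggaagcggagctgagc
HSPA8 held 4 cores in 2 overlapping pairs. They lie on the minus strand at chr11:123062349-123062371 and chr11:123062174-123062196, and are shown with 5 bases on either side because HSPA8 shared the low level of HSPA1A in DU145:
HSPA8 upstream pair: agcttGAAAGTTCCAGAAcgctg
HSPA8 pair near the start: gccccTTCTGGAAGGTTCtaaga
The cores of HSPA1A and HSPA1B lie 106 and 105 bases before the start and are the same 8 letters.

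Chaperones of the endoplasmic reticulum did not move as a group. HSPA5 (BiP), the HSP70 of its lumen, was at 654, 432, 606 and 478 FPKM in BPH-1, 577, 638, 719.7 and 774 in DU145 and 243, 251.4, 138 and 219.8 in PC3. PC3 lay below every other library, 2.54-fold below BPH-1 by the means (log2 fold change -1.36, SE 0.21, limma adjusted p = 0.000332) and 3.18-fold below DU145 (log2 fold change -1.69, SE 0.21, limma adjusted p = 0.00017). DU145 and BPH-1 overlapped (log2 fold change 0.33, SE 0.17, limma adjusted p = 0.123), and with the GC trend removed DU145 was higher (0.75, limma adjusted p = 0.0262).

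HSP90B1 (GRP94), the HSP90 of the same lumen, was at 332, 247, 436 and 405 FPKM in BPH-1, 12.7, 35.6, 8.42 and 48.8 in DU145 and 64.3, 64.1, 31.1 and 21.7 in PC3. Both PCa lines were lower than BPH-1, DU145 by 13.5-fold (log2 fold change -3.98, SE 0.48, limma adjusted p = 6.87e-05) and PC3 by 7.84-fold (log2 fold change -3.05, SE 0.35, limma adjusted p = 4.7e-05). HSP90B1 has a GC content of 42.4%, and with the GC trend removed the differences were smaller and still called (-2.65 and -1.83). The ratio of HSPA5 to HSP90B1 in a library was 1.18 to 1.97 in BPH-1, 15.9 to 85.5 in DU145 and 3.79 to 10.1 in PC3.

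The unfolded protein response acts through the endoplasmic reticulum stress element, which was searched on both strands as CCAAT, 9 bases of any kind and CCACG. It was found in 2 of the 64 member windows (3.12%), those of HSPA5 and HSP90B1, and in 0.0806% of all windows. The upstream stretch of HSPA5 at chr9:125241344-125241593 on the minus strand, which overlaps no annotated exon, and the 2 elements of HSP90B1 at chr12:103930211-103930239 and chr12:103930316-103930344 on the plus strand are shown because both genes carry the element and differed in their order of lines. Capitals mark the element, which reads on the opposite strand in the copy of HSP90B1 nearer the start:
HSPA5: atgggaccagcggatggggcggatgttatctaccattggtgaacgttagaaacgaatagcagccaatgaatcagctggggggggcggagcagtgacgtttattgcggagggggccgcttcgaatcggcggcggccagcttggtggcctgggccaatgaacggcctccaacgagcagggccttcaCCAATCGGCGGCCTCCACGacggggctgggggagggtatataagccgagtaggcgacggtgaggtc
HSP90B1 far copy: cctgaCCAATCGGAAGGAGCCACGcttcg
HSP90B1 near copy: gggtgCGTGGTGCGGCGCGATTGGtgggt

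Of 9 J-domain members of the endoplasmic reticulum, 1 was higher and 5 lower in PC3 than in BPH-1, and 2 were higher and 4 lower in DU145 than in BPH-1, against 27.1% and 40.4% of all genes in PC3 and 30.3% and 32.4% in DU145. Of the 5 lower calls in PC3, those of DNAJB9, DNAJC10, DNAJB14 and DNAJC25 ended with the GC trend removed. In DU145 the higher call of DNAJB12 (0.18) and the lower calls of DNAJB11 (0.77) and DNAJB14 (0.05) ended likewise. DNAJC1, a membrane J-domain protein of the reticulum, was the one higher in both, at 2.73, 3.33, 3.73 and 3.55 FPKM in BPH-1, 6.30, 8.23, 7.71 and 8.12 in DU145 and 13.3, 13.3, 15.2 and 15.6 in PC3. The 3 lines did not overlap, and DNAJC1 was 4.302-fold higher in PC3 (log2 fold change 1.83, SE 0.12, limma adjusted p = 1.31e-06) and 2.28-fold higher in DU145 than in BPH-1 (log2 fold change 0.99, SE 0.16, limma adjusted p = 0.000381). DNAJC3, which works with HSPA5 and restrains the kinases that halt translation, was at 16.6, 12.6, 18.7 and 15.6 FPKM in BPH-1, 1.05, 4.36, 0.759 and 5.78 in DU145 and 4.02, 4.05, 3.31 and 1.57 in PC3. It was lower in PC3 (log2 fold change -2.03, SE 0.22, limma adjusted p = 3.81e-05) and in DU145 (log2 fold change -2.31, SE 0.41, limma adjusted p = 0.000821) than in BPH-1, with log2 fold changes of -0.55 and -0.82 once the GC trend was removed. DNAJC10, a reductase of disulfide bonds, was lower in both lines as deposited (-1.73 in PC3 with SE 0.25 and -1.996 in DU145 with SE 0.23). The call in PC3 ended with the GC trend removed (-0.17, limma adjusted p = 0.332).

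DNAJB9, a target of the unfolded protein response, was at 3.53, 4.17, 3.50 and 3.52 FPKM in BPH-1, 1.42, 3.74, 1.85 and 6.20 in DU145 and 2.69, 2.04, 1.56 and 1.38 in PC3. It was lower in PC3 than in BPH-1 as deposited (log2 fold change -0.70, SE 0.15, limma adjusted p = 0.00264) and not with the GC trend removed (0.23, limma adjusted p = 0.105). In DU145 the difference turned from -0.25 (limma adjusted p = 0.496) to 0.80 (limma adjusted p = 0.00654), with the 2 DU145 libraries lowest in genes of low GC content also lowest in DNAJB9. HSPA13, a membrane-bound relative of HSP70 in microsomes, also depended on the trend. Its level was 20.1, 20.1, 24.6 and 19.98 FPKM in BPH-1, 10.6, 21.9, 7.64 and 15.5 in DU145 and 10.8, 7.80, 5.34 and 6.08 in PC3, and its difference in PC3 turned from -1.42 (limma adjusted p = 0.000121) to 0.85 (limma adjusted p = 0.00232). In DU145 it went from -0.66 (limma adjusted p = 0.0578) to 1.72 (limma adjusted p = 7.66e-06). The membrane J-domain protein DNAJB14 was lower in both lines (-1.13 in PC3 and -1.01 in DU145) and DNAJC25 in PC3 (-1.03) as deposited, and these 3 calls ended when the trend was removed (-0.12, 0.05 and 0.04). DNAJC18, which sits in the same membrane, was not on the list behind the counts of reticulum members above. It was instead highest in DU145, at 4.46, 4.17, 3.14 and 5.41 FPKM against 1.03, 1.55, 0.781 and 1.07 in BPH-1 and 1.12, 1.002, 1.04 and 0.927 in PC3, with no overlap (log2 fold change 1.33, SE 0.18, limma adjusted p = 0.000157 against BPH-1).

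Cytosolic HSP90 was the most abundant member in every line through 1 of its 2 genes. HSP90AB1, the constitutive form, was at 975, 739, 919 and 703 FPKM in BPH-1, 743, 792, 604 and 627 in DU145 and 980.0, 956, 1000.1 and 1203 in PC3. It ranked first in all 3 lines. It was higher in PC3 than in DU145 (log2 fold change 0.58, SE 0.16, limma adjusted p = 0.0122), and neither line was called against BPH-1 (limma adjusted p = 0.0634 for PC3 and 0.178 for DU145). With the GC trend removed PC3 was higher than BPH-1 (0.53, limma adjusted p = 0.0195), and without BPH-1 replicate 1 as well (0.40, limma adjusted p = 0.0344). Without DU145 replicates 1 and 3 and PC3 replicates 3 and 4, the difference of PC3 from DU145 was 0.46 (SE 0.15, limma adjusted p = 0.0519).

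HSP90AA1, the inducible form, was at 263, 208, 296 and 224 FPKM in BPH-1, 12.1, 44.8, 7.13 and 24.0 in DU145 and 150.4, 143, 61.3 and 38.5 in PC3. All 8 PCa libraries lay below all BPH-1 libraries, and the replicates within each PCa line were far apart. It was 11.3-fold lower in DU145 by the means (log2 fold change -3.72, SE 0.45, limma adjusted p = 6.88e-05) and 2.52-fold lower in PC3 (log2 fold change -1.52, SE 0.40, limma adjusted p = 0.00719). Both calls were kept with the GC trend removed (-3.09 and -0.91), and PC3 was higher than DU145 (log2 fold change 2.20, SE 0.60, limma adjusted p = 0.0135) although 1 library of DU145 overlapped PC3. The ratio of HSP90AB1 to HSP90AA1 was 3.11 to 3.71 in BPH-1, 17.7 to 84.8 in DU145 and 6.52 to 31.2 in PC3.

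**Figure D3:**
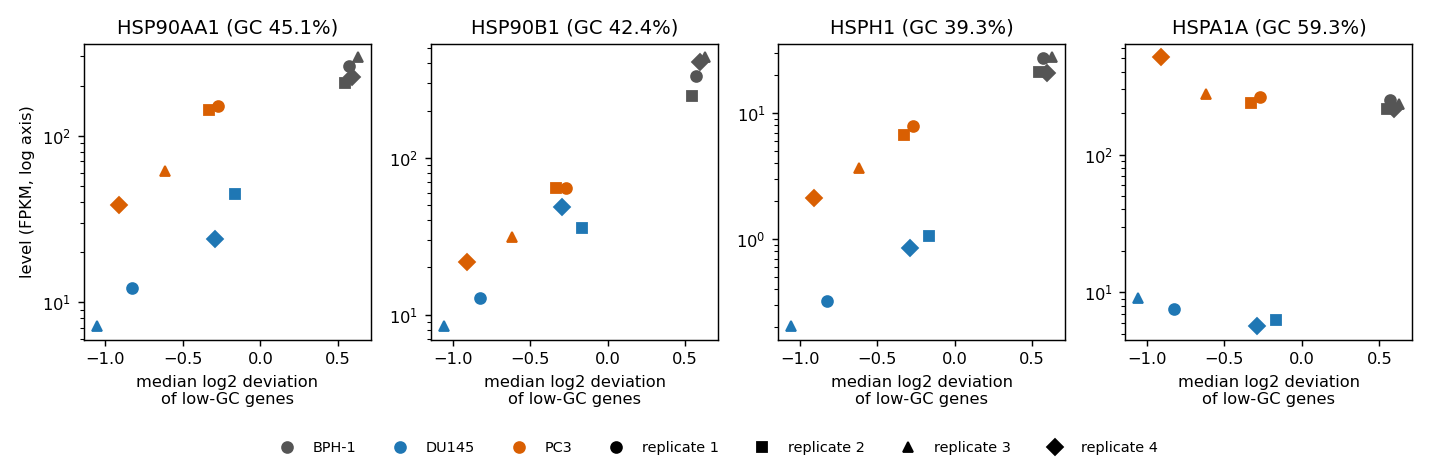
FPKM on a log axis of HSP90AA1, HSP90B1, HSPH1 and HSPA1A in the 12 libraries against the library's median log2 deviation over 2457 genes with a GC content under 42%, coloured by line and with a marker shape for each replicate. Within DU145 and within PC3, the libraries to the left are those with less HSP90AA1, HSP90B1 and HSPH1, whereas HSPA1A in DU145 stays between 5.65 and 9.13.

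The HSP110 exchange factors were lower in both PCa lines as deposited, 3 of 3 in each comparison with BPH-1, where 40.4% of all genes were lower in PC3 and 32.4% in DU145. HSPA4 lost its call in DU145 once the GC trend was removed. HSPH1, the heat-induced one, was at 27.4, 21.1, 27.6 and 20.7 FPKM in BPH-1, 0.326, 1.07, 0.203 and 0.857 in DU145 and 7.93, 6.67, 3.63 and 2.13 in PC3. The 3 lines did not overlap. HSPH1 was 39.5-fold lower in DU145 (log2 fold change -3.99, SE 0.21, limma adjusted p = 5.15e-07) and 4.75-fold lower in PC3 (log2 fold change -2.15, SE 0.30, limma adjusted p = 0.000186) than in BPH-1. Its transcripts have a GC content of 39.3%, and with the trend removed the log2 fold change was -2.50 in DU145 and -0.41 in PC3 (limma adjusted p = 0.0248). HSPA4L was at 7.81, 6.53, 7.41 and 7.85 FPKM in BPH-1, 0.181, 0.8294, 0.170 and 0.519 in DU145 and 1.67, 1.04, 0.613 and 0.328 in PC3, and its lower calls were kept likewise (-1.31 and -0.84). HSPA4, the most abundant of the 3, was at 88.8, 72.2, 89.0 and 80.0 FPKM in BPH-1, 17.4, 59.8, 10.4 and 56.2 in DU145 and 35.4, 34.9, 24.4 and 13.5 in PC3. Its difference in DU145 (log2 fold change -1.51, SE 0.49, limma adjusted p = 0.0212) shrank to -0.11 with the trend removed (limma adjusted p = 0.649), and without DU145 replicate 1 it was -1.29 (SE 0.52, limma adjusted p = 0.0623). In PC3 it was kept (-1.66 as deposited and -0.39 with the trend removed).

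Mitochondrial chaperones moved in opposite directions in DU145. HSPA9 (mortalin), the HSP70 that pulls proteins into the matrix, was at 84.2, 65.3, 92.4 and 68.8 FPKM in BPH-1, 168, 299.9, 106 and 279 in DU145 and 65.6, 64.9, 56.0 and 52.0 in PC3. DU145 lay above all other libraries, 2.74-fold above BPH-1 (log2 fold change 1.34, SE 0.31, limma adjusted p = 0.00388) and 3.58-fold above PC3 (PC3 against DU145, log2 fold change -1.71, SE 0.31, limma adjusted p = 0.00159). The small difference of PC3 from BPH-1 (log2 fold change -0.37, SE 0.14, limma adjusted p = 0.038) became 0.32 with the GC trend removed (limma adjusted p = 0.0695) and lost its call when PC3 replicate 3 or 4 or BPH-1 replicate 1 or 3 was left out (limma adjusted p between 0.0782 and 0.103). HSPD1, the barrel of the chaperonin, was at 114, 93.3, 137 and 99.3 FPKM in BPH-1, 9.58, 36.8, 5.83 and 32.0 in DU145 and 72.8, 79.9, 55.5 and 29.5 in PC3. It was 5.26-fold lower in DU145 than in BPH-1 (log2 fold change -2.67, SE 0.50, limma adjusted p = 0.00108). PC3 was higher than DU145 (log2 fold change 1.71, SE 0.57, limma adjusted p = 0.033), a call that was lost when PC3 replicate 1, 2 or 3 or DU145 replicate 1 or 3 was left out (limma adjusted p between 0.0646 and 0.0894). Its lower call in PC3 against BPH-1 (log2 fold change -0.96, SE 0.28, limma adjusted p = 0.0129) ended with the trend removed (-0.33, limma adjusted p = 0.175).

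HSPE1, the lid of the chaperonin, was at 32.8, 22.7, 28.0 and 22.7 FPKM in BPH-1, 10.96, 8.74, 10.8 and 7.15 in DU145 and 27.6, 24.1, 21.1 and 30.5 in PC3. DU145 lay below both other lines (log2 fold change -1.40, SE 0.19, limma adjusted p = 0.000136 against BPH-1, and 1.37 for PC3 against DU145, limma adjusted p = 0.000201). The gene lies on the opposite strand within the annotated span of HSPD1 on chromosome 2. Because the use of strand in counting is not given in the sources used here, reads from shared bases cannot be told apart.

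Among 5 mitochondrial J-domain members, DNAJC11, which associates with the cristae junctions, was at 19.9, 19.7, 20.1 and 17.9 FPKM in BPH-1, 14.2, 11.6, 16.0 and 10.7 in DU145 and 37.8, 32.6, 32.0 and 44.1 in PC3. The 3 lines did not overlap, with PC3 above (log2 fold change 0.87, SE 0.12, limma adjusted p = 0.00015) and DU145 below (log2 fold change -0.54, SE 0.16, limma adjusted p = 0.0142) BPH-1. DNAJC30 was higher in both PCa lines (0.43 in PC3 and 0.86 in DU145). DNAJA3 (Tid1) was higher in DU145 only as deposited (0.55, limma adjusted p = 0.0436, against 0.25 and 0.175 with the trend removed), and this call was lost when any library but DU145 replicate 2 was left out. DNAJC15, whose gene is known to be silenced by methylation in some tumours, had 8 to 14 reads in the BPH-1 libraries, 0 to 3 in DU145 and 0 in PC3. It did not pass the filter, and no fold is given.

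Among 8 small heat-shock proteins, 3 to 4 could be tested in a comparison. HSPB8, which works with BAG3 to send clumped proteins to autophagy, was at 10.2, 14.0, 17.1 and 22.6 FPKM in BPH-1 and 12.5, 8.89, 17.5 and 10.0 in DU145, and at 0 in PC3 replicates 1, 2 and 4 and 0.0229 in replicate 3. The 4 BPH-1 libraries held 3114 reads, those of DU145 2364 and those of PC3 1. Per read sequenced, BPH-1 held 2694 times as much as PC3 (exact binomial 95% interval 483 to 106457, for counting error only) and DU145 2060 times (369 to 81419). Its log2 fold change in PC3 depends on the pseudocount and was -4.03 against BPH-1 and -3.67 against DU145. HSPB8 passed the filter in these comparisons only through BPH-1 and DU145, so the tests of PC3 are not given. DU145 and BPH-1 overlapped.

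HSPB1 (HSP27) was abundant in every line, at 66.8, 107, 46.8 and 108 FPKM in BPH-1, 78.4, 62.9, 98.5 and 63.5 in DU145 and 96.1, 117, 125 and 137 in PC3. PC3 was higher than DU145 (log2 fold change 0.65, SE 0.18, limma adjusted p = 0.0151), with some overlap, and the other comparisons were not called as deposited. With the GC trend removed DU145 was lower than BPH-1 (-0.62, limma adjusted p = 0.0314). PC3 was higher than BPH-1 with median-of-ratios (0.77, limma adjusted p = 0.0212) and upper-quartile scaling (0.78, limma adjusted p = 0.0227), and without BPH-1 replicate 2 (limma adjusted p = 0.0336) or 4 (limma adjusted p = 0.0317). HSPB6 had 19 to 35 reads in the DU145 libraries, 4 to 7 in BPH-1 and 0 to 5 in PC3. It passed the filter only through DU145, so its test is not given. HSPB3 reached 22 reads in 1 BPH-1 library, and 0 to 1 in the PCa lines. HSPB1 and HSPB8 each held a core of the heat-shock element, HSPB1 at chr7:76302423-76302543 and HSPB8 at chr12:119178838-119178855 on the plus strand, and are shown because HSPB1 was the most abundant small heat-shock protein in PC3 and HSPB8 was at 1 read there but well expressed in the other lines:
HSPB1: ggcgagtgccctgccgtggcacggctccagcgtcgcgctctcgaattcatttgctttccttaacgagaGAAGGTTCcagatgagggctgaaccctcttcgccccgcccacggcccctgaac
HSPB8: cctccGAATATTCctgtg
HSPB8 held a further core just after its start.

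Of the 4 class A J-domain members, which are closest to the bacterial DnaJ, DNAJA1 was the most abundant, at 156, 157, 167 and 141 FPKM in BPH-1, 16.1, 34.8, 10.5 and 27.2 in DU145 and 102, 85.6, 63.3 and 71.1 in PC3. The lines did not overlap, and DNAJA1 was 6.999-fold lower in DU145 than in BPH-1 (log2 fold change -2.88, SE 0.31, limma adjusted p = 3.46e-05). With the trend removed the fall in DU145 was kept (-1.73) and the difference of PC3 from BPH-1 went from -0.96 to 0.09 (limma adjusted p = 0.627). DNAJA2 was lower in both PCa lines as deposited (-0.95 in PC3 and -0.93 in DU145) and in neither with the trend removed (0.33 and 0.50). DNAJA4 was nearly absent from BPH-1, at 0.0314, 0.0370, 0.0467 and 0.0207 FPKM, and was at 2.42, 2.58, 2.03 and 2.55 in DU145 and 1.46, 0.941, 1.203 and 2.15 in PC3. By the means it was 70.6-fold higher in DU145 (log2 fold change 1.71) and 42.4-fold higher in PC3 (log2 fold change 1.22) than in BPH-1. The BPH-1 libraries held 4 to 9 reads. The gene passed the filter only through the PCa lines, so these tests are not given.

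Of 12 class B members, 9 were tested, of which 2 were higher and 3 lower in each PCa line than in BPH-1. Over all genes tested, 27.1% were higher and 40.4% lower in PC3, and 30.3% and 32.4% in DU145. With the GC trend removed, every one of these class B calls in DU145 ended. The values became 0.38 for DNAJB6 and 0.18 for DNAJB12, called higher, and 0.77 for DNAJB11, 0.05 for DNAJB14 and 0.35 for DNAJB4, called lower. In PC3 the higher call of DNAJB2 (0.18) and the lower calls of DNAJB9 (0.23) and DNAJB14 (-0.12) ended. DNAJB1 (HSP40), the partner of HSP70 in the heat-shock response, was at 21.7, 15.4, 20.4 and 17.1 FPKM in BPH-1, 16.9, 14.8, 19.4 and 15.3 in DU145 and 31.0, 26.2, 30.8 and 49.5 in PC3. PC3 lay above both other lines (log2 fold change 0.82, SE 0.19, limma adjusted p = 0.00427 against BPH-1 and log2 fold change 0.97, SE 0.20, limma adjusted p = 0.00322 against DU145), and its replicate 4, the library with most HSPA1A and HSPA6, was again the highest. Unlike HSPA1A and HSPA8, DNAJB1 in DU145 overlapped BPH-1 (-0.15, limma adjusted p = 0.437), although it was lower with the GC trend removed (-0.52, limma adjusted p = 0.0154). DNAJB4 was at 6.33, 5.09, 7.47 and 6.04 FPKM in BPH-1, 1.55, 3.36, 1.19 and 1.97 in DU145 and 0.776, 0.378, 0.396 and 0.400 in PC3. It was 12.8-fold lower in PC3 (log2 fold change -2.28, SE 0.14, limma adjusted p = 1.05e-06), also with the trend removed (-0.93). In DU145 the difference turned from -1.30 (limma adjusted p = 0.000686) to 0.35 (limma adjusted p = 0.0912).

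**Figure D4:**
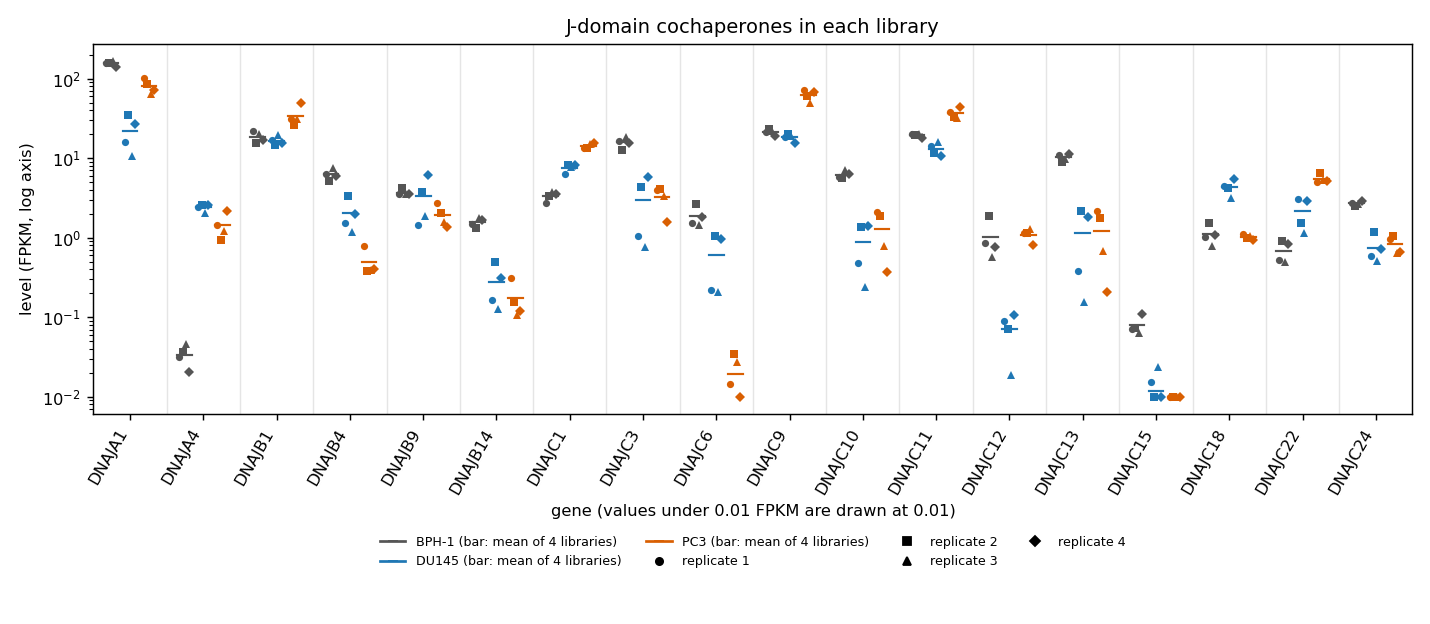
FPKM on a log axis of 18 J-domain members in each of the 12 libraries, with a bar at the mean of each line and a marker shape for each replicate. DNAJA4 lies at or below 0.0467 in BPH-1 and above 0.9 in every PCa library, DNAJC6 is at 0.0346 or less in PC3, and DNAJC9 and DNAJC11 are highest in PC3.

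Class C members, which share little beyond the J domain, went both ways. In PC3 against BPH-1, 10 of 25 tested were higher and 11 lower, in DU145 against BPH-1 6 and 9, and in PC3 against DU145 7 and 5. Of all genes tested, 27.1% were higher and 40.4% lower in PC3 against BPH-1, and 30.3% and 32.4% in DU145 against BPH-1. In PC3 against DU145 these shares were 20% and 28.3%. Among the calls not described elsewhere, the lower calls of DNAJC28 in PC3 (0.09) and of DNAJC27 in DU145 (-0.20) ended with the GC trend removed. DNAJC9, which chaperones histones H3 and H4, was at 21.0, 23.3, 21.7 and 19.3 FPKM in BPH-1, 18.5, 20.2, 18.8 and 15.5 in DU145 and 72.0, 59.8, 49.2 and 68.2 in PC3. It was 2.92-fold higher in PC3 than in BPH-1 (log2 fold change 1.49, SE 0.13, limma adjusted p = 9.7e-06) and 3.42-fold higher than in DU145 (log2 fold change 1.71, SE 0.15, limma adjusted p = 2.39e-05). DNAJC22 was at 0.531, 0.901, 0.488 and 0.822 FPKM in BPH-1, 3.06, 1.52, 1.14 and 2.90 in DU145 and 4.95, 6.44, 5.34 and 5.14 in PC3, without overlap, and was 7.98-fold higher in PC3 than in BPH-1 (log2 fold change 1.94, SE 0.13, limma adjusted p = 1.76e-06). DNAJC14, a membrane protein of the secretory route, was higher in PC3 than in BPH-1 (0.99, SE 0.24) and than in DU145 (1.44, SE 0.28). DNAJC5 (cysteine string protein) of vesicles was higher in PC3 than in BPH-1 (0.92, SE 0.10).

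DNAJC6 (auxilin), which strips clathrin from vesicles, was at 1.53, 2.68, 1.43 and 1.799 FPKM in BPH-1, 0.222, 1.04, 0.209 and 0.968 in DU145 and 0.0146, 0.0346, 0.0273 and 0 in PC3. PC3 stood below every other library, with log2 fold changes of -1.47 against BPH-1 and -0.62 against DU145. DNAJC6 passed the filter in these comparisons only through BPH-1 and DU145, so the tests of PC3 are not given. DNAJC13, of endosomes, was at 10.9, 9.03, 9.66 and 11.3 FPKM in BPH-1, 0.385, 2.18, 0.155 and 1.83 in DU145 and 2.19, 1.76, 0.688 and 0.205 in PC3, and was lower in both PCa lines also with the trend removed (-1.32 and -1.40). DNAJC2, which guides HSP70 at the ribosome, was lower in PC3 (-2.23) and DU145 (-2.31), and in both with the trend removed (-0.88 and -0.88). DNAJC12, known to assist the hydroxylases of aromatic amino acids, was at 0.860, 1.89, 0.576 and 0.758 FPKM in BPH-1, 0.0890, 0.0707, 0.0187 and 0.107 in DU145 and 1.14, 1.14, 1.27 and 0.802 in PC3. DU145 lay below both other lines, with a log2 fold change of -0.88 against BPH-1. DNAJC12 passed the filter in that comparison only through BPH-1, so its test is not given. DNAJC7 was lower in PC3 than in BPH-1 (-1.11, SE 0.11) and was so with the trend removed (-0.74). The lower calls of DNAJC24, which helps to make diphthamide, in both PCa lines (-1.02 and -1.09) and of DNAJC21, of ribosome assembly, in PC3 (-1.20) ended with the trend removed (0.29, 0.26 and 0.17).

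Among other HSP70 relatives, HSPA12A was at 1.65, 1.61, 2.16 and 2.21 FPKM in BPH-1, 2.73, 2.92, 2.54 and 3.92 in DU145 and 0.0811, 0.0479, 0.0473 and 0.0304 in PC3. By the means it was 36.9-fold lower in PC3 than in BPH-1 (log2 fold change -1.46). The gene passed the filter against PC3 only through BPH-1 and DU145, so the tests of PC3 are not given. HSPA12A was higher in DU145 than in BPH-1 (log2 fold change 0.46, SE 0.16, limma adjusted p = 0.0306). The call in DU145 was lost when DU145 replicate 4 or BPH-1 replicate 1 or 2 was left out (limma adjusted p between 0.0799 and 0.0882). The second row of HSPA14 (ENSG00000284024, chr10:14838166-14844727) was higher than in BPH-1 in DU145 (1.30, SE 0.19) and PC3 (0.34, SE 0.13). The call in PC3 was lost when PC3 replicate 1, 3 or 4 or BPH-1 replicate 1 or 4 was left out (limma adjusted p between 0.0572 and 0.0972). The other row (ENSG00000187522) passed no test as deposited, and with the GC trend removed it turned from -0.43 to 0.74 in PC3 (limma adjusted p = 0.00273) and from -0.35 to 0.96 in DU145 (limma adjusted p = 0.00554). Both rows overlap on the same strand, so the split of their reads is uncertain. The 6 members DNAJB7, DNAJB8, DNAJC5B, DNAJC5G, HSPB2 and HSPB7 had 3 reads or fewer in every library. DNAJB13, HSPA12B and HSPB9 had at most 13, 4 and 4 reads.

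GC content and the calls went together in the comparisons with BPH-1. The members lower in PC3 had a median GC content of 41.8% and those higher 53.5%, and in DU145 the medians were 42.4% and 51.9%. With the GC trend of each library removed, 15 of 28 lower calls and 13 of 14 higher calls were kept in PC3 against BPH-1, and 18 of 25 and 11 of 14 in DU145 against BPH-1. In PC3 against DU145, 18 of 18 higher and 13 of 15 lower calls were kept. The correction takes out whatever differs along GC content, of technical or other origin, and these were not told apart by a test.

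**Figure D5:**
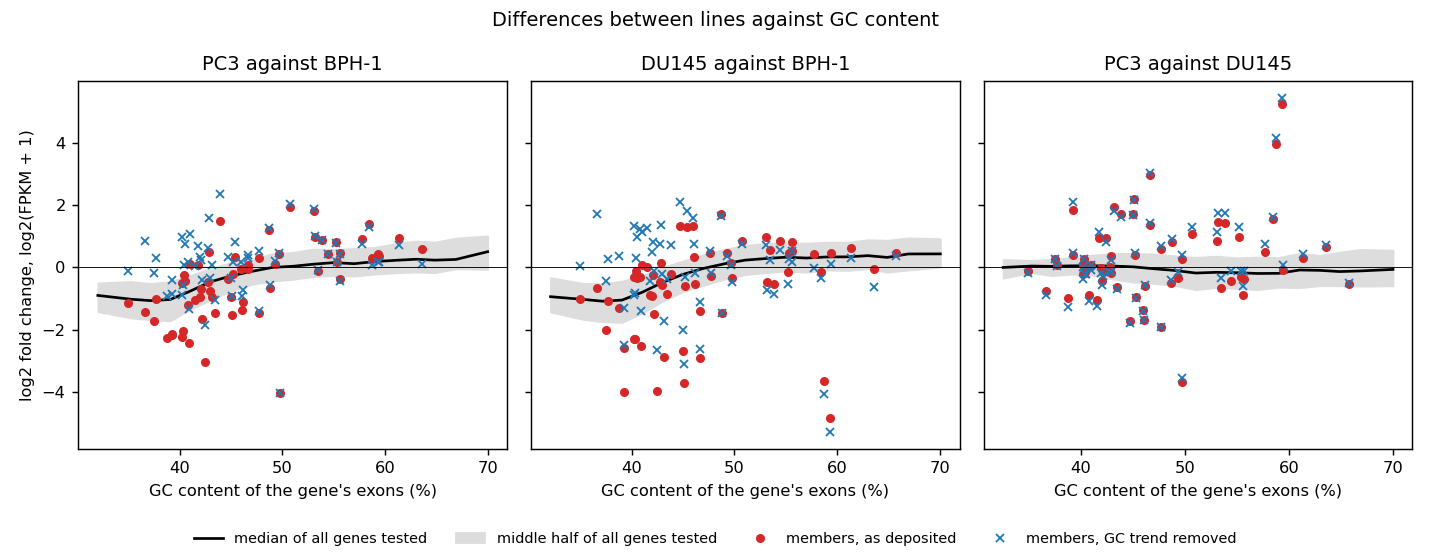
Log2 fold change of log2(FPKM + 1) against the GC content of each gene's exons, summed over its transcripts, for the members as deposited (red points) and with the GC trend removed (blue crosses), over the median (black line) and the middle part between the quartiles (grey) of all genes tested. At a GC content near 37.2% the black line is at -1.07 in PC3 and -1.08 in DU145 against BPH-1, and at 0.03 in PC3 against DU145.

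Other genes of the pathway, 57 by a list, gave 13 higher and 16 lower of 55 tested in PC3 against BPH-1, 14 and 19 in DU145 against BPH-1, and 8 and 11 in PC3 against DU145. The shares higher and lower were 23.6% and 29.1%, 25.5% and 34.5%, and 14.5% and 20% in these comparisons. Over all genes tested they were 27.1% and 40.4%, 30.3% and 32.4%, and 20% and 28.3%. HSF1, the main heat-shock factor, was higher in PC3 (log2 fold change 1.26, SE 0.12, limma adjusted p = 1.79e-05) and in DU145 (log2 fold change 0.89, SE 0.17, limma adjusted p = 0.00114) than in BPH-1, at 2.93, 2.99, 3.85 and 2.62 FPKM in BPH-1, 7.23, 5.47, 7.64 and 6.03 in DU145 and 9.40, 9.32, 8.10 and 8.31 in PC3. DU145 held more HSF1 RNA and less HSPA1A and HSPA8 RNA than BPH-1. HSF2 was lower in both PCa lines (-1.46 in PC3 and -1.21 in DU145), and the call in DU145 ended with the trend removed (-0.09, limma adjusted p = 0.598). BAG3, the exchange factor that pairs with HSPB8, was at 52.9, 50.8, 62.2 and 59.4 FPKM in BPH-1, 51.3, 45.5, 71.7 and 47.0 in DU145 and 67.5, 63.6, 75.9 and 86.0 in PC3, where HSPB8 was nearly absent. It was higher in PC3 than in BPH-1 by 0.37 (limma adjusted p = 0.022), a call that was lost when PC3 replicate 3 or BPH-1 replicate 1 or 2 was left out (limma adjusted p between 0.0558 and 0.058) and with the GC trend removed (0.16, limma adjusted p = 0.241).

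SIL1, the exchange factor of HSPA5, was at 3.73, 3.96, 3.90 and 2.97 FPKM in BPH-1, 7.96, 6.80, 10.3 and 7.30 in DU145 and 0.807, 0.861, 0.947 and 0.945 in PC3, without overlap (log2 fold change 0.96, SE 0.17, limma adjusted p = 0.000749 in DU145 and log2 fold change -1.29, SE 0.11, limma adjusted p = 7.71e-06 in PC3, against BPH-1). HYOU1, the HSP110 of the reticulum, was higher in DU145 than in PC3 (-1.24 for PC3 against DU145, SE 0.21, limma adjusted p = 0.00118). Of 14 genes of folding in the endoplasmic reticulum and of the unfolded protein response, 4 were higher and 6 lower in DU145 than in BPH-1 (30.3% and 32.4% of all genes). Genes known to take part in that response were among both. ATF4 was at 212, 163, 249.1 and 149 FPKM in DU145 against 55.9, 39.7, 53.9 and 40.5 in BPH-1 (log2 fold change 1.99, SE 0.21, limma adjusted p = 2.5e-05), DDIT3 (CHOP) rose by 2.07 (SE 0.23), XBP1 by 1.72 (SE 0.18) and HERPUD1 by 1.58 (SE 0.22). In the same comparison CANX (calnexin) was lower (-2.06, SE 0.39), and so were SDF2L1 (-1.10, SE 0.24), MANF (-0.90, SE 0.17), CRELD2 (-0.73, SE 0.23), CALR (calreticulin, -0.72, SE 0.19) and PDIA3 (-0.59, SE 0.14), of which SDF2L1, MANF, CRELD2 and CALR are also known targets of the response. The PDIA3 call ended with the trend removed (-0.15, limma adjusted p = 0.524), and the CRELD2 call when DU145 replicate 1 or BPH-1 replicate 3 or 4 was left out (limma adjusted p between 0.0534 and 0.0564). SEC63, the J-domain protein of the translocon, was lower as well (-2.26, SE 0.46). The SEC63 call ended with the trend removed (-0.43, limma adjusted p = 0.148).

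Of 15 HSP90 cochaperones including the mitochondrial HSP90, 4 were higher and 5 lower in PC3 than in BPH-1, and 1 higher and 6 lower in DU145. Over all genes tested, 27.1% were higher and 40.4% lower in PC3 than in BPH-1, and 30.3% and 32.4% in DU145. CDC37, which brings kinases to HSP90, was higher in PC3 (log2 fold change 1.14, SE 0.13, limma adjusted p = 4.56e-05). STUB1 (CHIP), the ubiquitin ligase bound to HSP70, was higher in PC3 (0.86, SE 0.14) as deposited, and not with the trend removed (0.4, limma adjusted p = 0.053). CHORDC1 was lower in PC3 (-1.90) and DU145 (-2.21), and so was CDC37L1 (-1.94 and -1.52). The calls of CHORDC1 in PC3 and CDC37L1 in DU145 ended with the trend removed (-0.12 and -0.06). SUGT1 was lower in PC3 (-1.02) and higher with the trend removed (0.54, limma adjusted p = 0.0293). PPID (cyclophilin 40) was lower in DU145 (-1.84, with -0.05 once the trend was removed), and FKBP5 was lower in PC3 (-1.07, with -0.18). TRAP1, the mitochondrial HSP90, passed no test as deposited, at 45.2 ± 4.39 FPKM in BPH-1, 38.4 ± 8.74 in DU145 and 47.2 ± 2.02 in PC3 (SD, n = 4). With the trend removed TRAP1 was lower in DU145 than in BPH-1 (-0.69, limma adjusted p = 0.00166). It was then also higher in PC3 than in DU145 (0.60, limma adjusted p = 0.000373). Of the 8 subunits of the TRiC chaperonin, 1 was higher and 3 lower in DU145 than in BPH-1, and 0 higher and 3 lower in PC3. The share lower was 37.5% in each, against 32.4% of all genes in DU145 and 40.4% in PC3. TCP1 was among those lower in DU145 (log2 fold change -1.21, SE 0.25, limma adjusted p = 0.00202). Among exchange factors, BAG4 was lower in both PCa lines (-1.64 in PC3 and -2.42 in DU145), BAG6 higher in both (0.64 and 1.02), and BAG2 lower in PC3 (-0.70) and higher in DU145 (0.68). With the trend removed BAG2 was higher in PC3 (1.34, limma adjusted p = 0.0011), and its call in DU145 was lost when DU145 replicate 2 or 4 or BPH-1 replicate 1, 2 or 4 was left out (limma adjusted p between 0.0663 and 0.0963). CRYAB, a small heat-shock protein outside the rule, was at 0.145 FPKM or less in all libraries and was not tested.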

How the data were processed

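RNA sequencing libraries of BPH-1, DU145 and PC3, 4 each, were compared as the labels group them. The authors deposited 1 table of values per gene. No source used here names their unit, and the deposited values were taken as FPKM because, with the gene lengths below, the low values of a library were whole multiples of 1 read. The submitters' processing notes name CASAVA 1.8, HISAT2 2.1.0 and edgeR with GRCh38, and the use of strand is not given in the sources used here. Gene lengths were taken over distinct exons of GENCODE 29. GC contents were taken over all transcript sequences of a gene in that release, so an exon counts once for each transcript that holds it. Reads were recovered from the steps of the FPKM values of genes of up to 30 reads, of which 95.9% to 96.8% came out whole within 0.02 reads. Depth was 12950664 to 16309563 reads per library.

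A gene was tested if 4 or more libraries reached 10 reads once scaled to the median depth and if it had 15 reads or more in all. Tests were run with limma 3.58.1 (R 4.3.3, with a trend on the mean) on log2(FPKM + 1), each comparison on its own 4 against 4 libraries, with Benjamini-Hochberg adjustment over all genes tested and a threshold of 0.05. The fitting code was tested on simulated data. The GC trend was removed from each library with a spline (5 degrees of freedom) fitted on genes having 50 reads or more. Alternatives were no filter, a stricter filter, a pseudocount of 0.1, a replicate block, 1 fit over all lines, other scalings, voom on the recovered reads, the GC correction and leaving out each library. Leaving out the libraries lowest in genes of low GC content together was added after seeing the data. The members and gene lists were chosen with earlier results of these data known. Values are given for a set list and for any other member or pathway gene with an adjusted p under 0.05, a log2 difference of at least 1 and no overlap of the lines in a comparison. A few others named in the text were chosen after their values were seen. Python 3.11.15, pandas 2.3.3 and matplotlib 3.10.9 were used for summaries and plots.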

Additional observations from a re-analysis of the deposited data

Results flagged for a closer look

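In 10 of 206 groups of 4 libraries, 1 library stood apart by Dixon's test, where chance alone gives about 1 in 20 groups. PC3 replicate 4 reached 508.6 FPKM in HSPA1A against 236.6 to 274.2 in the other PC3 libraries, and 31.91 in HSPA6 against 1.292 to 2.098. PC3 replicate 1 was at 0.7758 FPKM in DNAJB4 against 0.378 to 0.4, and PC3 replicate 3 was at 0.02292 in HSPB8, from 1 read, against 0. In BPH-1, replicate 2 was at 4.174 FPKM in DNAJB9 against 3.502 to 3.526, replicate 3 at 24.62 in HSPA13 against 19.98 to 20.12, replicate 4 at 17.88 in DNAJC11 against 19.72 to 20.06 and replicate 1 at 36.5 in CDC37 against 26.32 to 27.59. In DU145, replicate 3 was at 10.74 FPKM in the second row of HSPA14 against 15.84 to 16.84, and replicate 2 at 13.26 in XBP1 against 16.41 to 17.05.

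The genes DNAJC11, HSPA12A, HSPA9, BAG2, MANF and SIL1 differed from BPH-1 in opposite directions in PC3 and DU145 as deposited, and the difference itself was tested as PC3 against DU145. The lines share the BPH-1 libraries as control. This difference on the log2 scale was -1.92 for HSPA12A, whose test is not given because it passed the filter only through DU145. It was 1.42 for DNAJC11 (limma adjusted p = 0.000125) and -1.71 for HSPA9 (limma adjusted p = 0.00159). It was -1.38 for BAG2 (limma adjusted p = 0.00116), 1.49 for MANF (limma adjusted p = 0.000438) and -2.25 for SIL1 (limma adjusted p = 5.05e-06). With the GC trend removed HSPA9 (0.32, limma adjusted p = 0.0695) and BAG2 (1.34, limma adjusted p = 0.0011) were above BPH-1 in PC3, in the direction of DU145. Some of these calls against BPH-1 were also lost when 1 library was left out, those of HSPA9 in PC3 and of BAG2 and HSPA12A in DU145.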

How the results depend on the processing

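The GC correction moved the results most. Among the 183 single-gene values followed, 27 calls were lost and 21 gained under it. It brought the members lower in PC3 against BPH-1 from 28 to 16. It turned 23 of these log2 fold changes, of which 18 were called before or after, 3 of them both times. Of these 18, the values in PC3 against BPH-1 became 0.32 for HSPA9, 0.0934 for DNAJA1, 0.23 for DNAJB9, 0.85 for HSPA13 (limma adjusted p = 0.00232), 0.29 for DNAJC24, 0.037 for DNAJC25, 0.17 for DNAJC21, 0.54 for SUGT1, 1.34 for BAG2 (limma adjusted p = 0.0011), 0.33 for DNAJA2 and 0.74 for HSPA14. In DU145 against BPH-1 they became 0.35 for DNAJB4, 0.80 for DNAJB9 (limma adjusted p = 0.00654), 0.0456 for DNAJB14, 0.26 for DNAJC24, 0.50 for DNAJA2, 1.72 for HSPA13 and 0.96 for HSPA14. The same sum of FPKM in each library brought the members higher in PC3 against BPH-1 from 14 to 9, and moved the median of all genes to -0.28 in that comparison. The cause was not tested. With each library left out in turn, the members higher numbered 12 to 15 and those lower 26 to 29 in PC3 against BPH-1, 11 to 15 and 23 to 30 in DU145 against BPH-1, and 16 to 19 and 11 to 15 in PC3 against DU145. Voom on the recovered reads and a pseudocount of 0.1 changed no call among the 183 single-gene values, and voom gave 15 in place of 14 members higher in DU145 against BPH-1.

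The replicate numbers are in the labels of all lines, but deviations of same-numbered libraries did not pair them, with correlations between -0.136 and 0.104 in PC3 against BPH-1 and between -0.655 and 0.515 in PC3 against DU145, and not every library correlated best with its own number. With the replicate number as a block, 14 members were higher and 28 lower in PC3 against BPH-1, 12 and 25 in DU145 against BPH-1, and 16 and 11 in PC3 against DU145. Under the block HSPB1 (limma adjusted p = 0.0416) and HSPA1L (0.0483) passed in PC3 against BPH-1, and HSP90AB1 (0.0687) and DNAJA4 (0.0824) missed in PC3 against DU145. The second row of HSPA14 missed in PC3 against BPH-1 (0.0643), and BAG2 (0.0727) and HSPA12A (0.0632) in DU145 against BPH-1. The depth limits genes with few reads, and 11 members could not be tested.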
